A study of Mus musculus with 6 samples.

Results

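The genes described here are 35 genes of mural cells, meningeal fibroblasts and basement membranes, read out of 35857 genes measured by RNA sequencing in the mouse cerebral cortex at postnatal day 7. They are a list of symbols set by where each gene is known to be expressed, and the rule uses no measured value. The list was nevertheless chosen with earlier results of these data known. They fall into 4 classes by role, namely 7 pericyte genes, 5 contractile smooth muscle genes, 14 meningeal fibroblast genes and 9 vascular matrix and basement membrane genes. The study compared 3 cortices labelled Qk_KO (genotype Qk-/-) with 3 wild-type cortices, labelled Control, all from C57BL/6 mice. Qk encodes Quaking, an RNA-binding protein best known from glia. No source used here gives the Cre driver or other means of the deletion, or the cells that carried it. The series' design text counts 3 brains in each group, so the spread between replicates is the spread between brains.

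Expression was given as TPM, a relative transcript abundance that corrects for length and sums to the same total in every library, so that levels can be compared between genes. The depth of the libraries is unknown, because TPM keeps no read number. Qk itself was at 14.6, 15.2 and 15.4 TPM in Qk_KO cortex, against 36.5, 43.2 and 41.3 TPM in Control cortex, for replicates 1, 2 and 3 of each group, and values are listed in that order throughout. Its log2 change was -1.36 (SE 0.095, 95% interval -1.58 to -1.15, limma adjusted p = 0.000855), and the groups did not overlap. The Qk_KO mean was 0.373 of the Control mean, so Qk transcript remained in the Qk_KO cortices. Tbr1, Neurod6 and Emx1, transcription factors of cortical excitatory neurons, were detected in 6 of 6 libraries, with Neurod6 at 121 to 148 TPM. All log2 changes here are differences of log2(TPM + 1), Qk_KO minus Control, tested with limma across the 14994 genes that averaged 1 TPM or more, with Benjamini-Hochberg adjustment and a threshold of 0.05.

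Mural cells are the pericytes of capillaries and the smooth muscle cells of arterioles and venules, and they wrap the endothelial tube of brain vessels. They share with the endothelium and with astrocyte endfeet a basement membrane, a thin sheet built mainly of type IV collagen, laminins, nidogen and heparan sulfate proteoglycans. The meninges that cover the cortex, and the sleeves of tissue that follow vessels into it, hold fibroblasts that make fibrillar collagens, small leucine-rich proteoglycans, growth factors and retinoic acid. Pericytes are recruited to growing vessels by PDGF-B from the endothelium, which acts on the receptor Pdgfrb.

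None of the 34 members that could be tested differed between Qk_KO and Control cortex by the adjusted test, a count of 0 where 58 of the 14994 tested genes (0.387%) were called. Of the members, 5 of 34 (14.7%) had an unadjusted p under 0.05 with the lower level in Qk_KO cortex, against 5.30% of all tested genes, and 0 had one with the higher level, against 3.42% of all tested genes. These 5 were Vtn, Col1a2, Igf2, Fmod and Foxc1. The values of the 3 brains per group did not overlap, with Qk_KO lower, for 6 of 34 members (17.6%), against 8.98% of all tested genes. Those 6 were Vtn, Abcc9, Myh11, Igf2, Fmod and Foxc1, and for 0 members did the groups separate with Qk_KO higher, against 5.20% of all tested genes. The log2 change was below 0 for 30 of 34 members (88.2%), against 57.0% of all tested genes, with a median of -0.13 for the members and -0.03 for all tested genes. Under median-of-ratios scaling it was below 0 for 29 of 34 members, against 49.6% of all tested genes. Members of 1 class share libraries and cells, so these shares describe the list and are not a test of it. In whole cortex, fewer cells of a type and less RNA per cell cannot be told apart.

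The size of the possible differences was bounded, on the scale of log2(TPM + 1), for every tested member. Cnn1, too low to be tested, had no interval. The 95% interval of the log2 change lay inside -1 to 1 for 34 of 34 tested members, within 0.75 of 0 for 31 and within 0.5 of 0 for 18. These bounds rest on the pseudocount. For Myh11 a pseudocount of 0.1 TPM gave a log2 change of -0.39 (SE 0.33), against -0.25 (SE 0.20). At 0.1 TPM the bound of -1 to 1 need not hold for Myh11. The number of members with an unadjusted p under 0.05 rested on single brains. It was 11 of 34 without Qk_KO replicate 2, where 5.56% of all tested genes had such a p with the lower level in Qk_KO cortex. Without Control replicate 3 it was 2 of 34, where 3.73% of all tested genes had one. No member passed the adjusted test under any of these fits.

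**Figure D1:**
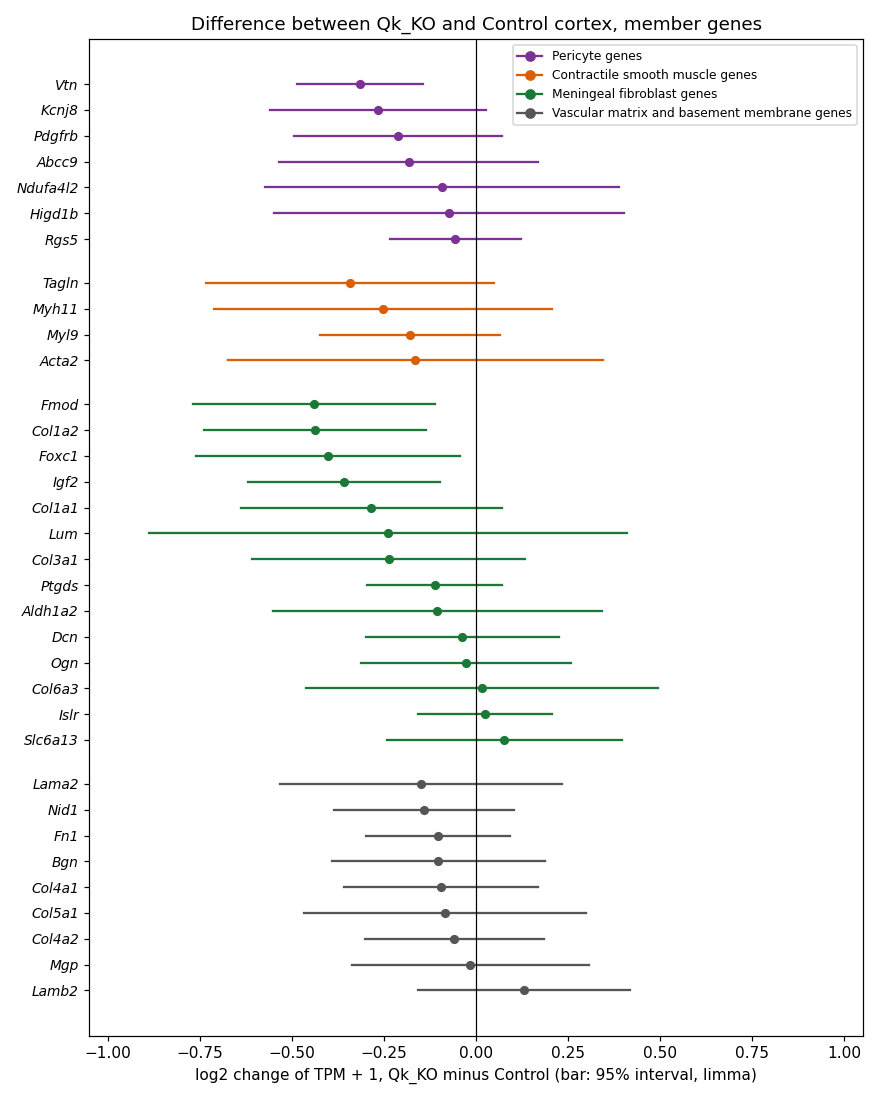
Log2 change of TPM + 1, Qk_KO minus Control, for the 34 tested members in 4 classes (horizontal axis), each point with its 95% interval from limma, with 3 libraries per group. All 34 intervals lie inside -1 to 1, and those of Vtn, Fmod, Col1a2, Foxc1 and Igf2 lie wholly below 0.

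The pericyte genes spanned levels from Abcc9, at a mean of 3.67 TPM over the 6 libraries, to Vtn, at a mean of 155 TPM. Their log2 changes were below 0 for 7 of 7, against 57.0% of all tested genes. The median was -0.18, and 0 of 7 passed the adjusted test. Vtn encodes vitronectin, an adhesive glycoprotein of plasma and matrix that pericytes express in the brain, and the gene lies on chromosome 11 at chr11:78499091-78502324 (GRCm38). It was at 146, 139 and 129 TPM in Qk_KO cortex, against 162, 176 and 178 TPM in Control cortex. Every Qk_KO brain was below every Control brain, and the log2 change was -0.32 (SE 0.075, 95% interval -0.49 to -0.14, limma adjusted p = 0.186), the smallest adjusted p of any member. Pdgfrb encodes the receptor through which PDGF-B recruits pericytes. It was at 9.93, 12.6 and 10.5 TPM in Qk_KO cortex, against 12.5, 12.02 and 14 TPM in Control cortex. Qk_KO replicate 2 was above 2 of the Control brains, so the groups overlapped, with a log2 change of -0.21 (SE 0.12, 95% interval -0.50 to 0.070, limma adjusted p = 0.697).

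Kcnj8 and Abcc9 encode the pore and the regulatory subunit of a potassium channel gated by ATP, and they are neighbours on chromosome 6, on the same strand, with a gap of 16247 bp and 0 protein-coding genes between them. Kcnj8 was at 11.3, 12.3 and 9.30 TPM in Qk_KO cortex, against 14.3, 13.5 and 12.2 TPM in Control cortex. The lowest Control value lay under the highest Qk_KO value, and the log2 change was -0.27 (SE 0.13, 95% interval -0.56 to 0.028, limma adjusted p = 0.614). Abcc9 was at 3.22, 3.25 and 3.66 TPM in Qk_KO cortex, against 3.93, 3.70 and 4.27 TPM in Control cortex, without overlap but by a margin of 0.04 TPM, and its log2 change was -0.18 (SE 0.16, 95% interval -0.53 to 0.17, limma adjusted p = 0.803). The ratio of Kcnj8 to Abcc9 was 3.52, 3.78 and 2.54 in Qk_KO cortex and 3.64, 3.66 and 2.86 in Control cortex, so replicate 3 had the lowest ratio in each group.

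Rgs5, a regulator of G protein signalling and a common marker of pericytes, was at 36.6, 36.1 and 37.6 TPM in Qk_KO cortex, against 36.4, 40.1 and 38.3 TPM in Control cortex. Its 95% interval was the narrowest of the pericyte genes apart from that of Vtn, with a log2 change of -0.056 (SE 0.078, 95% interval -0.23 to 0.12, limma adjusted p = 0.898). Higd1b, of a family of hypoxia-inducible mitochondrial proteins, and Ndufa4l2, a mitochondrial protein also induced by hypoxia, varied most of the pericyte genes between brains. Higd1b was at 16.01 TPM in Qk_KO replicate 1 and 8.45 TPM in Qk_KO replicate 2, and its log2 change was -0.073. Ndufa4l2 ranged from 8.27 to 14.4 TPM in Qk_KO cortex and 10.1 to 15.5 TPM in Control cortex. The log2 changes of both took the opposite sign when single brains were left out. Summed over the 7 genes the pericyte level was 238, 225 and 209 TPM in Qk_KO cortex, against 255, 268 and 272 TPM in Control cortex, and Vtn made up more than any other gene of these sums. Without Vtn the sums were 91.5, 85.8 and 79.7 TPM in Qk_KO cortex, against 93.0, 91.9 and 94.4 TPM in Control cortex, and they came within 0.41 TPM of overlapping.

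**Figure D2:**
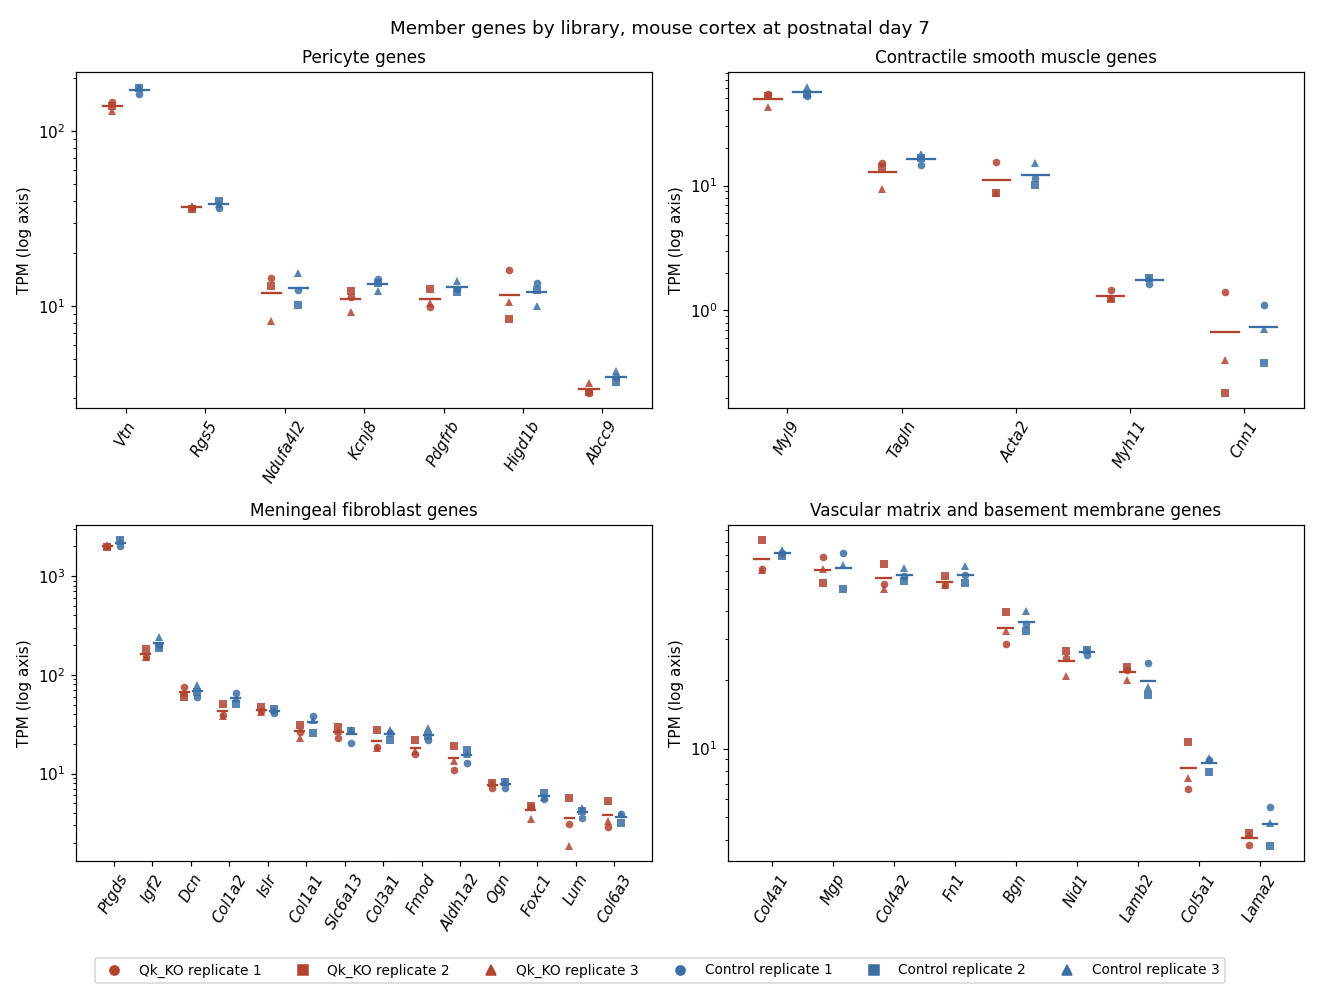
TPM of all 35 members (vertical axes, logarithmic) in each of the 6 libraries, by class and ordered by mean level, with Qk_KO in red to the left of Control in blue, marker shape for the replicate and a bar for the group mean. Levels run from Cnn1, at 1.41 TPM or less in every library, to Ptgds, at 1966 TPM or more in every library, and the groups of most members overlap.

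The contractile smooth muscle genes encode the actin and myosin apparatus of arterioles and its regulators, and their expression is driven by serum response factor with its cofactor myocardin. Of the 5 genes, 4 passed the filter on low levels. Of these 4 of 4 had a log2 change below 0, against 57.0% of all tested genes. The median was -0.22, and 0 of 4 passed the adjusted test. Cnn1, which encodes calponin, was at 1.41, 0.220 and 0.400 TPM in Qk_KO cortex, against 1.11, 0.380 and 0.710 TPM in Control cortex and was not tested. Myl9 encodes the regulatory light chain of smooth muscle myosin and was the most abundant of them. It was at 53.9, 52.4 and 42.6 TPM in Qk_KO cortex, against 52.6, 54.5 and 61.4 TPM in Control cortex, with a log2 change of -0.18 (SE 0.11, 95% interval -0.42 to 0.065, limma adjusted p = 0.705). Tagln, which encodes the actin-binding protein transgelin, was at 15.2, 14.2 and 9.37 TPM in Qk_KO cortex, against 14.5, 16.7 and 17.8 TPM in Control cortex. Qk_KO replicate 3 was the lowest brain for both genes, and Tagln had a log2 change of -0.34 (SE 0.17, 95% interval -0.73 to 0.049, limma adjusted p = 0.633). Myh11, the myosin heavy chain of smooth muscle, was at 1.46, 1.23 and 1.26 TPM in Qk_KO cortex, against 1.62, 1.83 and 1.83 TPM in Control cortex. Its groups did not overlap, with a margin of 0.16 TPM, but at this low level the log2 change of -0.25 (SE 0.20, 95% interval -0.71 to 0.21, limma adjusted p = 0.783) is compressed by the pseudocount.

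Acta2, the smooth muscle actin, ranged from 8.75 to 15.5 TPM in Qk_KO cortex and 10.1 to 15.1 TPM in Control cortex, with a log2 change of -0.16 that ran from -0.42 to -0.011 with a brain left out. The actin genes are close paralogs, and how reads shared between them were assigned was not checked, so the level of Acta2 is uncertain. The order of the brains was alike across this class. Qk_KO replicate 1 was the highest Qk_KO brain for 4 of 4 tested genes, against 32.0% of all tested genes. Qk_KO replicate 3 was the lowest for 3 of 4, against 29.0%, but for Acta2 only just (8.75 TPM, against 8.79 TPM in Qk_KO replicate 2). Control replicate 3 was the highest Control brain for 3 of 4, against 39.5%. The class median moved with the brain left out, to -0.36 without Qk_KO replicate 1 and to -0.11 without Qk_KO replicate 3.

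A promoter window of this class is shown because it holds a match to the motif of serum response factor. It runs from 250 bases before to 50 bases after the first base of Myl9 in RefSeq (GRCm38.p6, plus strand, chr2:156775214-156775513), and the capitals mark a CArG box, the motif bound by serum response factor, 161 bases before that first base and apart from the other motifs searched.
Myl9: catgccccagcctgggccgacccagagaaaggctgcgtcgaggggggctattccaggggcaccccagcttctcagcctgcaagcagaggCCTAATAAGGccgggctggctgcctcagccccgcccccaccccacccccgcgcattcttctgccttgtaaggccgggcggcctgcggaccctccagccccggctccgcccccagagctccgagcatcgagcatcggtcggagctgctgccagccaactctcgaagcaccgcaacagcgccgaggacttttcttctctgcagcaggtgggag
A CArG box stood in such a window of 3 of the 25 members with a RefSeq window, namely Myl9, Igf2 and Lama2, searched on both strands, and in 1.63% of 32851 promoter windows of the mouse. The letters CCAAT, on either strand, stood in windows of 11 of the 25 members and in 37.4% of all windows, and GGGCGG in 12 of the 25 and in 35.7% of all windows. The other 10 members had no window in the table. Cnn1 was among the 25 and had no CArG box in a window. Members were counted as genes, and the 25 held 30 windows. The shares for the mouse count windows, so the units differ.

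The meningeal fibroblast genes reached the highest levels of the list. Of these 14 genes, 11 had a log2 change below 0, against 57.0% of all tested genes. The median was -0.17, and 0 of 14 passed the adjusted test. An unadjusted p under 0.05, with the lower level in Qk_KO cortex, was found for 4 of 14, against 5.30% of all tested genes. These 4 were among the 5 such members of the whole list. Of 12 further meningeal markers 0 had such a p. Ptgds encodes the synthase of prostaglandin D2 and is known from meninges, choroid plexus and oligodendrocytes. It was at 2008, 1966 and 2074 TPM in Qk_KO cortex, against 2006, 2299 and 2239 TPM in Control cortex, which placed it at rank 37 by mean TPM among all genes, and its log2 change was -0.11 (SE 0.081, 95% interval -0.29 to 0.072, limma adjusted p = 0.755). Control replicate 1 was about level with Qk_KO replicate 1, so the groups overlapped.

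Type I collagen, the main fibrillar collagen of meninges, is assembled from chains encoded by Col1a1 and Col1a2. Col1a2 was at 38.8, 51.1 and 38.3 TPM in Qk_KO cortex, against 65.2, 50.4 and 58.5 TPM in Control cortex. Qk_KO replicate 2 lay just above Control replicate 2, and the log2 change was -0.44 (SE 0.13, 95% interval -0.74 to -0.14, limma adjusted p = 0.351). Col1a1 was at 26.2, 30.8 and 23.1 TPM in Qk_KO cortex, against 37.9, 25.7 and 35.1 TPM in Control cortex, with a log2 change of -0.28 (SE 0.16, 95% interval -0.64 to 0.071, limma adjusted p = 0.666). Col3a1, the chain of type III collagen, was at 18.7, 27.6 and 18.1 TPM in Qk_KO cortex, against 25.9, 21.9 and 27.5 TPM in Control cortex. For all of these collagens Qk_KO replicate 2 was the highest Qk_KO brain and Control replicate 2 the lowest Control brain. Their sum was 83.6, 109 and 79.5 TPM in Qk_KO cortex, against 129, 98.1 and 121 TPM in Control cortex. Col6a3, a chain of type VI collagen, was at 2.89, 5.24 and 3.29 TPM in Qk_KO cortex, against 3.92, 3.16 and 3.92 TPM in Control cortex. It was also highest in Qk_KO replicate 2 among the Qk_KO brains and lowest in Control replicate 2 among the Control brains, and it had a log2 change of 0.016.

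The ratio of Col1a1 to Col1a2 was 0.675, 0.603 and 0.603 in Qk_KO cortex and 0.582, 0.510 and 0.601 in Control cortex. The higher ratio in Qk_KO cortex separated the groups by 0.0017. Of 7 ratios between partner genes compared, this one and Lamb2 to Lamb1 had a two-sided exact permutation p of 0.1, the smallest that 3 brains against 3 allow, and an adjusted p of 0.35 over the 7 ratios.

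**Figure D3:**
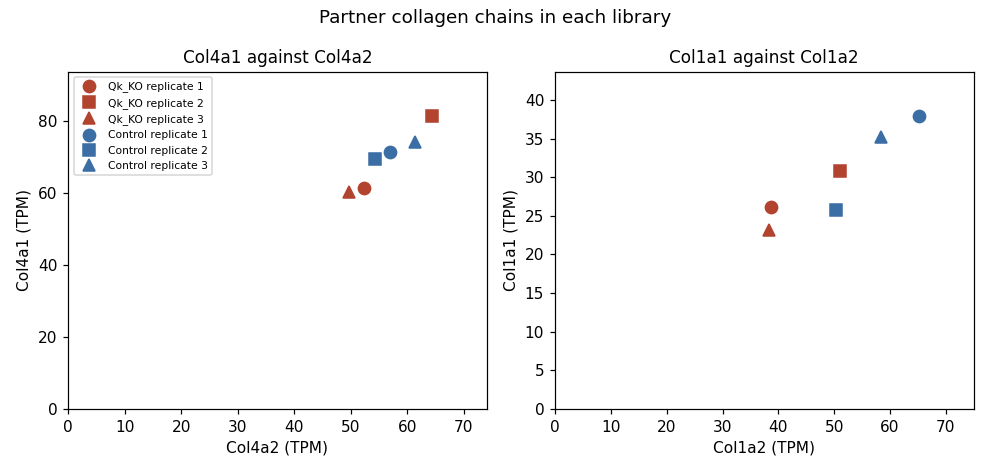
TPM of Col4a1 against Col4a2 (left) and of Col1a1 against Col1a2 (right) in each library, with Qk_KO in red, Control in blue and marker shape for the replicate. The type IV chains keep a ratio of 1.17 to 1.28 in all 6 libraries, and Qk_KO replicate 2 is the highest library for both of them.

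Fmod, Dcn, Lum and Ogn encode small leucine-rich proteoglycans that bind collagen fibrils. Fmod, fibromodulin, was at 15.6, 21.8 and 17.01 TPM in Qk_KO cortex, against 21.8, 24.1 and 28.7 TPM in Control cortex. The groups came within 0.021 TPM of each other without overlapping, and the log2 change was -0.44 (SE 0.15, 95% interval -0.77 to -0.11, limma adjusted p = 0.399). Dcn and Lum are neighbours on chromosome 10 with a gap of 46984 bp. Dcn, decorin, ranged from 60.2 to 74.8 TPM in Qk_KO cortex and 59.9 to 77.95 TPM in Control cortex, with a log2 change of -0.037. Lum, lumican, was at 3.12, 5.68 and 1.86 TPM in Qk_KO cortex, against 3.57, 4.15 and 4.50 TPM in Control cortex. Both its highest and its lowest brain were Qk_KO brains, and its 95% interval, -0.89 to 0.41, was the widest of the list. Ogn, osteoglycin, averaged 7.67 ± 0.532 TPM in Qk_KO cortex and 7.84 ± 0.608 TPM in Control cortex (SD, n = 3 each), and its neighbour on the opposite strand, Cenpp, overlaps it.

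Igf2, an imprinted growth factor made by meninges and choroid plexus, lies at chr7:142650766-142666816 (GRCm38) and overlaps Igf2os on the opposite strand. It was at 150.3, 184 and 152 TPM in Qk_KO cortex, against 201, 185 and 239 TPM in Control cortex. The groups were separated by 0.745 TPM, between Qk_KO replicate 2 and Control replicate 2, and the log2 change was -0.36 (SE 0.11, 95% interval -0.62 to -0.099, limma adjusted p = 0.379). Foxc1, a transcription factor needed for meninges to form, was at 4.58, 4.72 and 3.43 TPM in Qk_KO cortex, against 5.54, 6.31 and 5.82 TPM in Control cortex. Every Qk_KO brain was below every Control brain, by at least 0.82 TPM, with a log2 change of -0.40 (SE 0.16, 95% interval -0.76 to -0.044, limma adjusted p = 0.509).

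Slc6a13, a transporter of GABA in meninges and blood vessels, averaged 26.4 ± 3.37 TPM in Qk_KO cortex and 25.1 ± 4.10 TPM in Control cortex, with a log2 change of 0.077. Aldh1a2, which makes retinoic acid in the meninges, ranged from 10.8 to 19.1 TPM in Qk_KO cortex and 12.6 to 17.4 TPM in Control cortex, with a log2 change of -0.11. Islr, a secreted protein with immunoglobulin and leucine-rich domains, varied little, at 42.4 to 46.7 TPM in Qk_KO cortex and 41.1 to 44.9 TPM in Control cortex, and its 95% interval of -0.16 to 0.21 was among the narrowest of the list.

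The vascular matrix and basement membrane genes had the median log2 change nearest 0 of the 4 classes. Of these 9 genes, 8 had a log2 change below 0, against 57.0% of all tested genes, with a median of -0.095. An unadjusted p under 0.05 was found for 0 of 9, and the smallest limma adjusted p was 0.770, for Nid1. Col4a1 and Col4a2 encode the chains that assemble into the type IV collagen of nearly all basement membranes. Col4a1 was at 61.2, 81.4 and 60.2 TPM in Qk_KO cortex, against 71.4, 69.2 and 74.1 TPM in Control cortex. Qk_KO replicate 2 was above every Control brain and the other Qk_KO brains were below every Control brain, with a log2 change of -0.095 (SE 0.12, 95% interval -0.36 to 0.17, limma adjusted p = 0.878). Col4a2 was at 52.3, 64.4 and 49.6 TPM in Qk_KO cortex, against 56.8, 54.3 and 61.4 TPM in Control cortex, in the same order of brains within each group, with a log2 change of -0.059 (SE 0.11, 95% interval -0.30 to 0.18, limma adjusted p = 0.927).

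These genes are transcribed in opposite directions from a shared promoter on chromosome 8. Their first bases in the annotation are 21 bp apart, at 11312805 for Col4a2 on the plus strand and at 11312826 for Col4a1 on the minus strand, so their first exons overlap. The RefSeq window of Col4a2 (GRCm38.p6, plus strand, chr8:11312555-11312854) is shown because the pair kept a similar ratio in all brains, and the capitals mark its 78 bases that also lie in the window of Col4a1.
Col4a2: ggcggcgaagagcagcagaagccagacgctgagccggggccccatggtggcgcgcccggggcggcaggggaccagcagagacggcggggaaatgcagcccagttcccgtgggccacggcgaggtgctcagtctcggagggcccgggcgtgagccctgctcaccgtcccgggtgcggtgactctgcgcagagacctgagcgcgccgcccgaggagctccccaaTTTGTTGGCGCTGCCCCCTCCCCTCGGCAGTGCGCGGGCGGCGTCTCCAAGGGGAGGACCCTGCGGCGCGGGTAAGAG
The ratio of Col4a1 to Col4a2 was 1.17, 1.26 and 1.21 in Qk_KO cortex and 1.26, 1.28 and 1.21 in Control cortex. Whether the shared promoter has a part in this ratio was not tested.

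Nid1 encodes nidogen, which links laminin to type IV collagen. It was at 24.9, 26.7 and 20.7 TPM in Qk_KO cortex, against 25.6, 27.1 and 26.96 TPM in Control cortex, with a log2 change of -0.14 (SE 0.11, 95% interval -0.39 to 0.10, limma adjusted p = 0.770). Fn1, fibronectin, an adhesive glycoprotein of vessels and plasma, was at 52.1, 56.8 and 51.7 TPM in Qk_KO cortex, against 57.2, 53.2 and 62.5 TPM in Control cortex. The groups overlapped for both genes, and Fn1 had a log2 change of -0.10 (SE 0.086, 95% interval -0.30 to 0.093, limma adjusted p = 0.802). Mgp, matrix Gla protein, an inhibitor of calcification, was at 68.5, 52.7 and 60.7 TPM in Qk_KO cortex, against 71.6, 49.7 and 63.6 TPM in Control cortex. Unlike the other matrix genes it was lowest in Qk_KO replicate 2 among the Qk_KO brains, and its log2 change was -0.015 (SE 0.14, 95% interval -0.34 to 0.31, limma adjusted p = 0.984), above 0 under median-of-ratios scaling (0.014) and quantile normalization (0.021).

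Lamb2 encodes the laminin beta 2 chain, found in basement membranes of vessels and synapses, and was the only member of this class with a log2 change above 0. It was at 21.99, 22.7 and 19.95 TPM in Qk_KO cortex, against 23.6, 17.1 and 18.6 TPM in Control cortex. Control replicate 1 was the highest brain, and the log2 change was 0.13 (SE 0.13, 95% interval -0.16 to 0.42, limma adjusted p = 0.838). Lamb1, the alternative beta 1 chain, was at 29.8, 27.3 and 25.2 TPM in Qk_KO cortex, against 33.04, 31.2 and 29.7 TPM in Control cortex. The ratio of Lamb2 to Lamb1 was 0.737, 0.834 and 0.793 in Qk_KO cortex, against 0.713, 0.549 and 0.625 in Control cortex. All Qk_KO brains had the higher ratio, with the exact permutation p of 0.1 and adjusted p of 0.35 given above. Lama2, the laminin alpha 2 chain, ranged from 3.77 to 4.29 TPM in Qk_KO cortex and 3.76 to 5.55 TPM in Control cortex, with a log2 change of -0.15. Bgn, the proteoglycan biglycan, ranged from 28.6 to 39.4 TPM in Qk_KO cortex and 32.7 to 40.02 TPM in Control cortex, with a log2 change of -0.10. Col5a1, a chain of type V collagen, ranged from 6.68 to 10.6 TPM in Qk_KO cortex and 7.93 to 9.08 TPM in Control cortex, with a log2 change of -0.084.

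The spread between brains was wider in Qk_KO than in Control cortex for each class. The median coefficient of variation was 12.8% in Qk_KO and 7.97% in Control cortex for the pericyte genes, and 18.2% and 9.19% for the smooth muscle genes. For the meningeal genes it was 15.6% in Qk_KO and 12.4% in Control cortex, and for the matrix genes 13.01% and 8.13%. Over all tested genes it was 10.5% in Qk_KO and 10.0% in Control cortex. With 3 brains per group and members that vary together, this difference in spread was not tested.

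Many members shared the order of the brains. Qk_KO replicate 2 was the highest Qk_KO brain for 12 of 14 meningeal genes and 8 of 9 matrix genes, against 32.5% of all tested genes. Control replicate 2 was the lowest Control brain for 8 of 9 matrix genes, against 38.8% of all tested genes, and for 5 of 14 meningeal genes. For the meningeal genes Control replicate 1 was more often the lowest Control brain, for 9 of 14, against 35.7% of all tested genes. Expressed as a percentage of each gene's mean, the median level of the matrix genes was 92.6%, 110% and 93.02% in Qk_KO cortex and 103%, 94.1% and 108% in Control cortex. For the meningeal genes it was 84.8%, 103% and 84.98% in Qk_KO cortex and 98.5%, 104% and 115% in Control cortex. The median log2 change of the meningeal genes was -0.35 without Qk_KO replicate 2 and -0.10 without Qk_KO replicate 3. That of the matrix genes was -0.18 without Qk_KO replicate 2 and -0.028 without Qk_KO replicate 3.

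**Figure D4:**
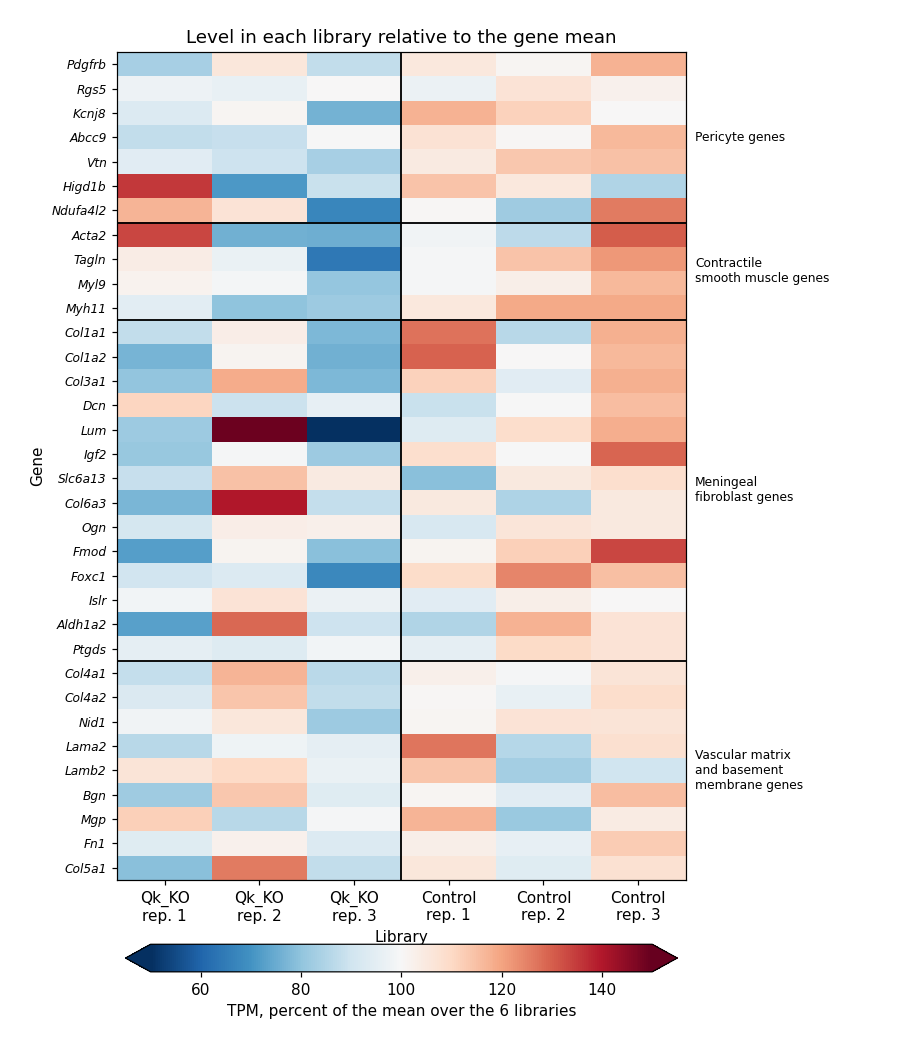
Level of each tested member in each library as a percentage of its mean over the 6 libraries (colour, from blue below to red above 100%), with the 3 Qk_KO libraries to the left of the 3 Control libraries and the classes from top to bottom. Qk_KO replicate 2 is redder than the other Qk_KO libraries for most meningeal and matrix genes, and Qk_KO replicate 3 is bluest of them for Tagln and Myl9.

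Markers of other tissue that a dissected cortex can carry were read beside this pattern. The choroid plexus markers, summed over 10 genes that include Ttr and Folr1, were at 680, 1035 and 749 TPM in Qk_KO cortex and at 1550, 760 and 1473 TPM in Control cortex. Qk_KO replicate 2 was the highest Qk_KO brain for 6 of the 9 tested choroid plexus markers, against 32.5% of all tested genes. Control replicate 2 was the lowest Control brain for 9 of 9, against 38.8%. The same brains were highest and lowest in their groups for the fibrillar and type IV collagens. Control replicate 1, the lowest Control brain for 9 of 14 meningeal genes, had the highest Control sum of the choroid plexus markers, a sum carried by Ttr. Counted by gene, Control replicate 3 was the highest Control brain for 7 of the 9 markers, against 39.5% of all tested genes, and Control replicate 1 for 2, against 33.7%. Ttr, transthyretin, was at 647, 992 and 712 TPM in Qk_KO cortex, against 1495, 724 and 1412 TPM in Control cortex. Of the choroid plexus markers 0 passed the adjusted test, and Folr1 had an adjusted p of 0.629 in limma. The log2 change was below 0 for 9 of 9 tested choroid plexus markers, against 57.0% of all tested genes, with a median of -0.27. Red blood cell genes summed to 10818, 9223 and 4146 TPM in Qk_KO cortex and 11127, 12560 and 6965 TPM in Control cortex. A log2 change below 0 was found for 5 of 5 tested red blood cell genes, with a median of -0.47, and 0 passed the adjusted test. The part of these tissues in the members' levels was not tested.

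Other markers gave further values on what the samples held. Bone markers summed to 1.45 to 2.43 TPM in Qk_KO cortex and 1.18 to 3.85 TPM in Control cortex, with Bglap and Bglap2 at 0 in every library. Skeletal muscle markers summed to 15.6 to 19.9 TPM in Qk_KO cortex and 19.1 to 20.4 TPM in Control cortex, of which the actin gene Acta1 averaged 13.4 TPM. Without Acta1, which could share reads with other actins, they summed to 4.87, 5.06 and 5.26 TPM in Qk_KO cortex and 6.43, 5.85 and 5.98 TPM in Control cortex. Border macrophage markers summed to 54.0, 70.2 and 42.9 TPM in Qk_KO cortex and 52.6, 45.9 and 36.0 TPM in Control cortex. Qk_KO replicate 2 was the highest Qk_KO brain for 6 of 7 tested, against 32.5% of all tested genes. The part of bone, muscle and macrophages in the members' levels was not tested.

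**Figure D5:**
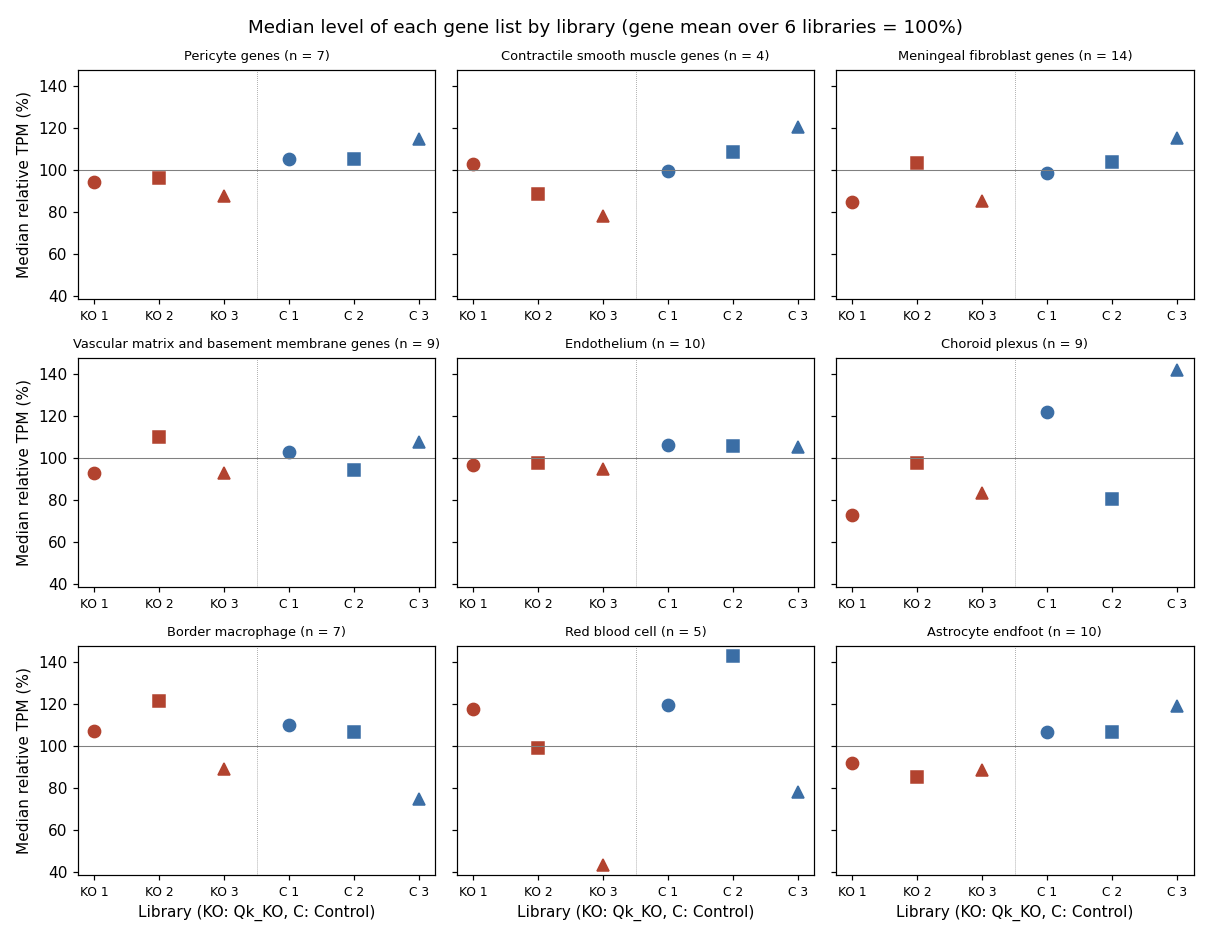
Median level of the tested genes of 9 lists (vertical axes, percentage of each gene's mean over the 6 libraries) in each library, with Qk_KO in red to the left of Control in blue. The 4 member classes and the endothelial list stay between 78.0% and 120%, while the choroid plexus list runs from 72.9% to 142% and the red blood cell list from 43.4% to 143%.

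Further genes of the same cells were read in the same way. Endothelial markers summed to 442, 480 and 420 TPM in Qk_KO cortex and 573, 444 and 457 TPM in Control cortex, and 0 of 10 passed the adjusted test, with a median log2 change of -0.15. The ratio of summed pericyte genes to summed endothelial markers was 0.538, 0.468 and 0.498 in Qk_KO cortex and 0.446, 0.604 and 0.596 in Control cortex, so the groups overlapped. Cldn5, a tight junction gene, averaged 336 TPM and carried the endothelial sum. Without it the sum was 128, 117 and 125 TPM in Qk_KO cortex, against 143, 141 and 143 TPM in Control cortex, without overlap, and the median relative level over the list was 96.6%, 97.6% and 94.8% in Qk_KO cortex, against 106%, 106% and 105% in Control cortex. Of 10 further pericyte markers 0 passed, with a median of -0.034, of 8 further smooth muscle markers 0, with a median of -0.11, and of 12 further meningeal markers 0, with a median of -0.074. The further pericyte markers summed to 118, 133 and 111 TPM in Qk_KO cortex, against 115, 101 and 122 TPM in Control cortex. The further smooth muscle markers summed to 39.7, 39.8 and 37.3 TPM in Qk_KO cortex, against 51.6, 44.2 and 43.2 TPM in Control cortex, and the further meningeal markers to 275, 271 and 278 TPM in Qk_KO cortex, against 293, 287 and 275 TPM in Control cortex. Of these sums that of the smooth muscle markers did not overlap between the groups, and the other two did. In the astrocyte endfoot list, whose cells face the same basement membrane, 3 of 10 genes fell, the glutamate transporter gene Slc1a3 (log2 change -1.23, limma adjusted p = 0.000494), Mlc1 (-1.11, 0.00153) and the gap junction gene Gja1 (-0.47, 0.0413). Oligodendrocytes also express Ptgds, and of their markers Mbp and Cnp fell, 2 of 6 tested, with log2 changes of -0.85 and -0.76 and limma adjusted p-values of 0.00153 and 0.0152. In the same list Trf, transferrin, was at 35.02, 40.8 and 35.96 TPM in Qk_KO cortex, against 24.4, 21.7 and 25.96 TPM in Control cortex, higher in every Qk_KO brain but short of the threshold (log2 change 0.61, limma adjusted p = 0.0528), and Mog had a log2 change of 0.29. Leaving out any 1 brain ended the call of Gja1 (limma adjusted p of 0.101 to 0.206), and leaving out Qk_KO replicate 2 or 3 or Control replicate 2 or 3 ended that of Cnp (0.0758 to 0.112).

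The pathways that connect these cells were read from 11 lists, and in none of them did a gene pass the adjusted test. Of their 134 tested genes, 14 (10.4%) were lower in Qk_KO cortex without overlap and 9 (6.72%) higher, against 8.98% and 5.20% of all tested genes. Tgfb1, Col5a3, Itga6, Cd44, Ddr2 and Aldh1a1, which are among the 9, and Trf, Mog and Cldn5 of the marker lists were taken up after their values had been seen. So were Pdgfra, Tpm1, Vcl, Bcam, Itga7 and Itga1, which are among the 14, and Myocd. In PDGF-B signalling 0 of 12 passed, with a median log2 change of -0.049. The ligand gene Pdgfb, taken up for its role after its values had been seen, was at 63.95, 68.7 and 59.9 TPM in Qk_KO cortex, against 67.5, 61.97 and 62.4 TPM in Control cortex, with a log2 change of 0.0040 (SE 0.081, 95% interval -0.18 to 0.19, limma adjusted p = 0.991). Pdgfa, the related ligand, and Grb2, an adaptor of the receptor, had log2 changes of -0.042 and -0.069. Only for Pdgfra of this list did the groups not overlap. It was at 34.8, 31.8 and 34.0 TPM in Qk_KO cortex, against 40.6, 42.4 and 41.7 TPM in Control cortex. Its log2 change was -0.30 (SE 0.078, 95% interval -0.48 to -0.12, limma adjusted p = 0.241, the smallest of the list). Which cells held the Pdgfra transcript cannot be told from whole cortex. In TGF-beta signalling 0 of 15 passed, with a median of -0.070. Eng, the endothelial co-receptor endoglin, averaged 48.9 ± 6.96 TPM in Qk_KO cortex and 58.6 ± 2.38 TPM in Control cortex without overlap (log2 change -0.27, limma adjusted p = 0.537). The ligand gene Tgfb1 averaged 11.8 ± 0.882 TPM in Qk_KO cortex and 9.69 ± 0.188 TPM in Control cortex, also without overlap and higher in Qk_KO cortex (log2 change 0.26, limma adjusted p = 0.549). The mediator Smad4 had a log2 change of -0.011, above 0 under median-of-ratios scaling (0.018). Among serum response factor, its cofactors and target genes 0 of 10 tested genes passed, with a median of -0.050. The cofactor gene Myocd, at 0 to 0.13 TPM in Qk_KO cortex and 0 to 0.05 TPM in Control cortex, was not tested. The groups did not overlap for 2 genes, Tpm1 and Vcl, with Qk_KO lower, and for 0 with Qk_KO higher. Tpm1 was at 124, 122 and 143 TPM in Qk_KO cortex, against 157, 152 and 151 TPM in Control cortex. Its log2 change was -0.24 (limma adjusted p = 0.398), and that of Vcl was -0.15. The cytoplasmic actin genes Actg1 and Actb had log2 changes of 0.089 and -0.00027, and that of Actb was above 0 under median-of-ratios scaling (0.030).

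The remaining matrix lists gave the same count of 0. Of 8 other laminins tested the median log2 change was 0.0067, with Lamb1 at -0.19 and Lamc1, the gamma 1 chain, at 0.058. Of 13 other basement membrane genes the median was -0.056. Sparc, a collagen-binding glycoprotein, came closest to the threshold in these lists. It was at 132, 120.0 and 128 TPM in Qk_KO cortex, against 159, 156 and 174 TPM in Control cortex, with every Qk_KO brain below every Control brain and a log2 change of -0.36 (SE 0.074, 95% interval -0.53 to -0.19, limma adjusted p = 0.119). Agrn, the heparan sulfate proteoglycan agrin, had a log2 change of -0.14. Of 19 genes for collagen processing 17 were found in the files and tested, with a median of -0.018, and the folding enzyme P4hb and the collagen chaperone Serpinh1 had log2 changes of 0.070 and 0.15. Of 11 other fibrillar and associated collagens the median was -0.0072, with Col6a2 at -0.12 and Col6a1 at -0.0072, the second above 0 under median-of-ratios scaling (0.022). Col5a3, a chain of type V collagen, was at 3.53, 3.77 and 2.71 TPM in Qk_KO cortex, against 1.17, 1.28 and 1.65 TPM in Control cortex, higher in every Qk_KO brain, with a log2 change of 0.87 (SE 0.20, 95% interval 0.42 to 1.33, limma adjusted p = 0.172). Of 3 other small leucine-rich proteoglycans tested the median was 0.15, with Prelp at 0.15 and Podn at 0.20.

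Receptors and enzymes that act on the matrix were also read. Of 19 matrix receptors tested the median log2 change was -0.086. Dag1, dystroglycan, which anchors astrocyte endfeet to laminin, averaged 71.6 ± 1.16 TPM in Qk_KO cortex and 81.4 ± 2.25 TPM in Control cortex, and Ddr1, a collagen receptor, averaged 37.6 ± 3.94 TPM in Qk_KO cortex and 50.5 ± 8.62 TPM in Control cortex. Neither overlapped between the groups, and the limma adjusted p-values were 0.472 and 0.390. Of the 19 receptors 5 were lower and 3 higher in Qk_KO cortex without overlap, against 8.98% and 5.20% of all tested genes. The 5 were Dag1, Ddr1, Bcam (log2 change -0.39, limma adjusted p = 0.274), Itga7 (-0.40, 0.550) and Itga1 (-0.26, 0.690). The 3 were the laminin receptor subunit Itga6 (log2 change 0.39, limma adjusted p = 0.271, the smallest of the list), the hyaluronan receptor Cd44 (0.49, 0.509) and the collagen receptor Ddr2 (0.41, 0.549). Of 13 metalloproteinases and inhibitors the median was -0.035, with the inhibitors Timp2 at -0.087 and Timp4 at -0.16. Of 13 retinoic acid genes the median was 0.12, with the binding protein Crabp1 at 0.18. Aldh1a1, which makes retinoic acid like Aldh1a2, was at 9.39, 11 and 10.03 TPM in Qk_KO cortex, against 5.48, 6.30 and 7.50 TPM in Control cortex, higher in every Qk_KO brain, with a log2 change of 0.59 (SE 0.14, 95% interval 0.27 to 0.91, limma adjusted p = 0.187).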

How the data were processed

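RNA with poly(A) tails was captured on oligo-dT beads, made into libraries with the Ion Total RNA-Seq kit and sequenced on the Ion Proton, per the labels' protocols. STAR 2.4.1d, RSEM 1.3.0, mm10 and GRCm38.p4 are named in the submitters' processing notes. Each of the 6 deposited tables holds TPM, made by the authors from reads scaled by length and library total. No source used here names the gene annotation or says whether counting used strand, so genes with an overlapping partner on the other strand, among them Igf2, Tagln, Ndufa4l2, Ogn, Islr, Fn1, Col4a1 and Col4a2, may hold reads of that partner. No pair of libraries shared more than 75 identical values among 14994 tested genes.

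Values were used as deposited. Genes averaging 1 TPM or more were fitted as log2(TPM + 1) with limma 3.58.1 in R 4.3.3 (lmFit, eBayes with trend), group being the only term. Two-sided p-values had Benjamini-Hochberg adjustment across every tested gene. The procedure was tested on simulated data. Alternatives were pseudocounts of 0.1 and 0.5, no filter, a filter at 5 TPM, median-of-ratios and quantile scaling, a replicate block, eBayes without trend, and each library left out. The log2 scale with a pseudocount understates differences of low genes. Depth is unknown, so no counting error is given.

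The members and lists were chosen with earlier results of these data known. All members are named. Values in every library go to the 3 of smallest p and the 2 of highest mean TPM in each class, and to others where a pair or a separation is described. From the 11 pathway lists the rule took genes past the threshold or the 2 of highest mean TPM. From the 11 cell type marker lists fewer were named, and an item the rule took is not reported here. The cortical neuron genes, the partner ratios and a few further list genes were chosen later, after values were seen. Coordinates are from GENCODE vM21 (GRCm38), promoters from RefSeq (GRCm38.p6).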

Additional observations from a re-analysis of the deposited data

How the results depend on the processing

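No member passed the threshold under any of 14 alternatives, and the smallest adjusted p of a member was 0.174. Of 340 member values under the 10 alternatives that can move a log2 change, 316 kept its sign and 24, of 13 members, did not. Of the other 21 members, 13 moved by over 1.5 times with a brain left out. The number of all genes past the threshold was 58, and 74 with the filter at 5 TPM, 37 with no filter, 28 with eBayes without trend and 20 to 53 with a brain left out. With the replicate block it was 38. Same-numbered libraries deviated together with correlations of 0.035, 0.031 and 0.013, each the best of its library, too weak to take the numbers as pairs. With a brain left out, the median log2 change was -0.24 to -0.15 for the pericyte, -0.36 to -0.11 for the smooth muscle, -0.35 to -0.10 for the meningeal and -0.18 to -0.028 for the matrix genes. The median over all tested genes was -0.026, against 0.0017 with median-of-ratios scaling and -0.0027 with quantile normalization.

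Log2 changes that took the other sign with a brain left out ranged from -0.31 to 0.12 for Higd1b, -0.24 to 0.13 for Ndufa4l2, -0.13 to 0.059 for Dcn, -0.56 to 0.052 for Lum, -0.060 to 0.17 for Slc6a13, -0.19 to 0.15 for Col6a3, -0.085 to 0.025 for Ogn, -0.017 to 0.051 for Islr and -0.32 to 0.070 for Aldh1a2. For Col4a2 they ranged from -0.17 to 0.015, for Bgn from -0.22 to 0.0026, for Mgp from -0.16 to 0.099 and for Col5a1 from -0.26 to 0.038. Among other genes the ranges were -0.12 to 0.025 for Pdgfa, -0.046 to 0.052 for Pdgfb, -0.076 to 0.050 for Smad4, -0.13 to 0.12 for Actb, -0.0076 to 0.093 for Lamc1, -0.11 to 0.079 for Col6a1, -0.042 to 0.36 for Prelp, -0.35 to 0.062 for Timp4 and -0.18 to 0.068 for Cldn5. Under median-of-ratios scaling the sign changed for Mgp (0.014), Smad4 (0.018), Actb (0.030) and Col6a1 (0.022), and under quantile normalization for Mgp (0.021), Smad4 (0.0099) and Col6a1 (0.029). The cause was not tested.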
